A study of Mus musculus with 2 samples.

Results

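The genes described here encode the main families of axon guidance ligands and receptors: Eph receptors and ephrins, semaphorins with their plexin and neuropilin receptors, Slits with Robo receptors, and netrins with Unc5 receptors. Members were every probe set whose single annotated gene symbol belongs to one of these families, which gave 148 probe sets of 67 genes, out of 18194 genes with a probe set of their own. They were measured on 2 Affymetrix arrays of RNA of ESSP9, a mouse embryonic stem (ES) cell line whose genotype label is Del1.3MbWBS, a deletion of 1.3 Mb in the Williams-Beuren syndrome (WBS) region. In humans WBS follows from deletion of a segment that is conserved, gene for gene in large part, in the mouse. The labels give both arrays as biological replicates of this single group, grown with LIF and 20% serum replacement on feeder cells, and leave unsaid whether the cultures were separate, so their spread may include a technical part. No line without the deletion was analysed here, so nothing below is a comparison of genotypes.

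Guidance ligands steer growing axons and migrating cells by attraction or repulsion, and most of these families also act outside the nervous system, in blood vessels, epithelia and mesenchyme. Eph receptors are tyrosine kinases that bind membrane-anchored ephrins on neighbouring cells and can signal in both directions. Semaphorins act through plexins, which inactivate small GTPases, and most of the secreted class also need neuropilins. Slits repel through Robo receptors, and netrins attract through Dcc or Neo1 and repel through Unc5 receptors.

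Values are RMA values on the log2 scale, given per gene for replicate 1 and then replicate 2. Each gene is represented by its probe set with the highest mean. A gene counted as above background when its mean and its value on each array exceeded the 95th percentile of 38 olfactory receptor genes, 5.59 for the mean. Probes differ in affinity, so no order of levels between single genes was read, and medians over many genes are descriptions.

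Transcripts of 56 of the 67 genes were above background, or 83.6%, against 68.4% of all 18194 genes. The members' median level was 7.17, against 7.19 over all genes. The difference in shares did not appear at the level of probe sets, where 93 of 148 member probe sets (62.8%) were above their threshold of 5.55, against 62.4% of all probe sets. Member genes had 2.21 probe sets each, against 1.92 for all genes and 1.13 for the olfactory receptor genes. Among genes with 1 probe set, 14 of 23 members (60.9%) were above background, against 53.4% of all such genes. Among genes with several, 42 of 44 members (95.5%) were, against 83.6% of all such genes. When the median over a gene's probe sets stood for it, 52 of 67 members (77.6%) were above background, against 66.5% of all genes. Of ligands, 32 of 35 were above background on the brightest probe set, and of receptors 24 of 32. These groups were not matched for the number of probe sets: of 8 ephrins 6 had several, and of 13 Eph receptors 5. With medians over probe sets 8 of 8 ephrins and 8 of 13 Eph receptors were above background. Whether the contrast depends on the number of probe sets was not tested.

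**Figure D1:**
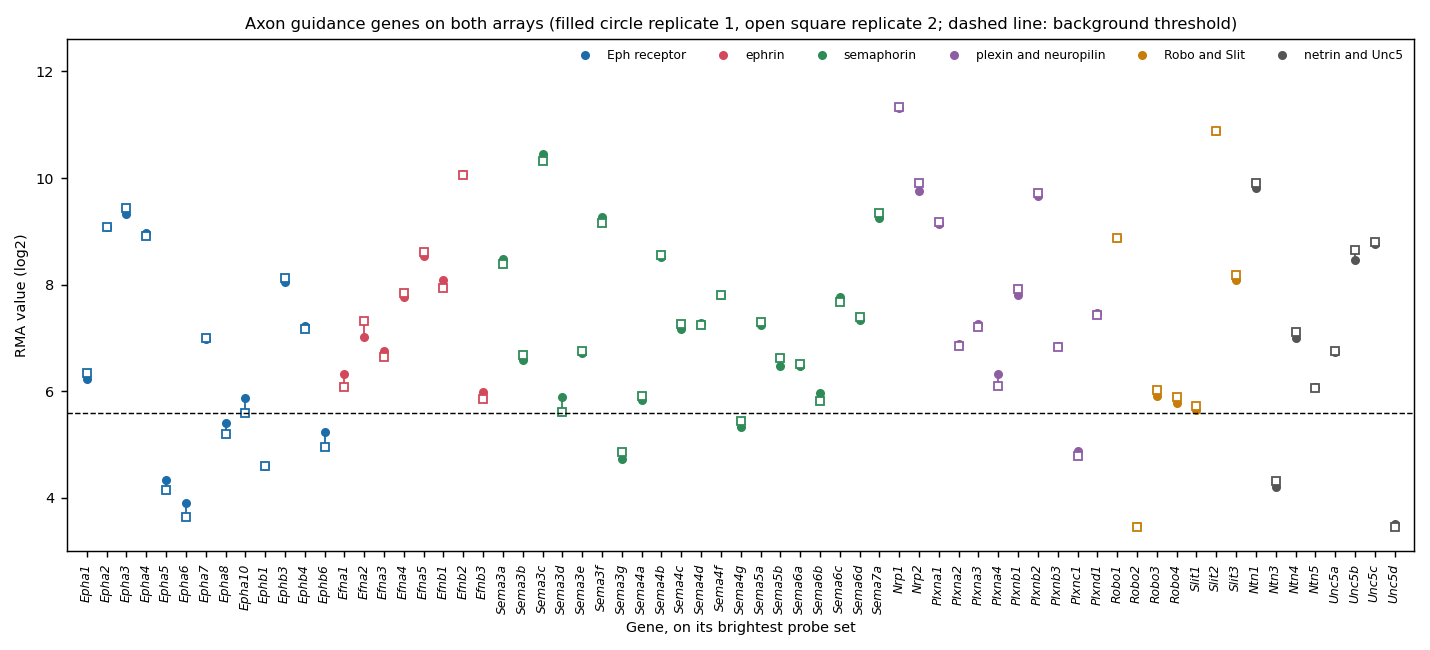
RMA values (log2) of the 67 genes on replicate 1 (filled circles) and replicate 2 (open squares), coloured by family, with the background threshold of 5.59 as a dashed line. All 8 ephrins lie above the line on both arrays, while 5 of the 13 Eph receptors lie below it. Several probe sets were available for 6 of the ephrins and for 5 of the Eph receptors.

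The RNA came from a mixed culture. All 10 measured ES cell markers were above background (means from 9.76 to 14.09, Pou5f1 at 12.64 and 12.62), and so were all 11 measured fibroblast markers (means from 8.81 to 14.88, Col1a2 at 14.88 and 14.87). Of 12 neuronal markers 8 (66.7%) were above background, against 68.4% of all genes. Those above were Stmn2 (11.54 and 11.59), Nefl (10.56 and 10.71), Nefm (8.71 and 8.99), Tubb3 (8.19 and 8.20) and Gap43 (7.99 and 8.10). Rbfox3 (6.84 and 6.71), Elavl4 (5.95 and 6.04) and Elavl3 (6.05 and 5.72) were too, on 1 of 3 probe sets each. Snap25 (3.16 and 3.10), Dcx (4.94 and 4.50), Syn1 (5.63 and 5.57) and Syt1 (5.44 and 5.38) were not. Of 8 endothelial markers 4 (50%) were, namely Kdr (6.74 and 6.59), Pecam1 (6.09 and 6.30), Tek (6.01 and 6.28) and Erg (5.72 and 5.91), while Cdh5 (4.41 and 4.53), Vwf (4.35 and 3.98), Tie1 (3.82 and 3.92) and Emcn (3.93 and 3.76) were not. Of 5 measured blood cell markers 3 (60%) were, namely Csf1r (6.86 and 6.60), Cd3e (6.58 and 6.55) and Spi1 (6.44 and 6.25), while Ptprc (3.96 and 4.14) and Itgam (3.87 and 3.98) were not. On this call the shares of these neuronal, endothelial and blood cell markers were no higher than that of all genes. Syn1 missed the threshold on replicate 2 alone, at 5.57 against 5.58. The neuronal share lies close to that of all genes, so its order depends on this 1 call. When medians over probe sets were used, 7 of the 12 neuronal markers (58.3%) were above background, against 66.5% of all genes. Which cells supplied each guidance transcript was not tested, and in such RNA fewer cells of a type and less RNA per cell cannot be told apart.

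The start regions of these genes were compared by their CpG content, a feature the choice of members did not use. CpG-rich start regions are typical of broadly expressed genes and of developmental regulators. RefSeq windows (GRCm38.p6) matched 58 of the 67 genes, and the 250 bases before each annotated start were read. A window counted as CpG-rich when the ratio of observed to expected CG dinucleotides exceeded 0.6 and the GC content exceeded 50%. Over both calls 32 of 58 members (55.2%) had a CpG-rich window, close to the 54.5% of 13268 protein-coding genes. Of members above background 26 of 48 (54.2%) had a CpG-rich window, against 66.2% of 9762 protein-coding genes above background. Of members not above background 6 of 10 (60%) had one, against 21.9% of 3506 protein-coding genes not above background. The share rests on 10 genes and was not tested. The shares of the members on either side of the background lie close together, and those of protein-coding genes lie far apart.

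The upstream windows below stand for the possible combinations of the call and of CpG content, with every CG dinucleotide in capitals, each read 5′ to 3′ on the gene's own strand. Slit2 (chr5:47982905-47983154, plus strand) was above background and had 25 CG dinucleotides, a ratio of 0.85. Epha5 (chr5:84417383-84417632, minus strand) was not above background and had 20, also a ratio of 0.85. Robo4 (chr9:37401722-37401971, plus strand) was above background with 2, a ratio of 0.13. Sema3g (chr14:31217623-31217872, plus strand) was not above background and had 8, a ratio of 0.35.
Slit2: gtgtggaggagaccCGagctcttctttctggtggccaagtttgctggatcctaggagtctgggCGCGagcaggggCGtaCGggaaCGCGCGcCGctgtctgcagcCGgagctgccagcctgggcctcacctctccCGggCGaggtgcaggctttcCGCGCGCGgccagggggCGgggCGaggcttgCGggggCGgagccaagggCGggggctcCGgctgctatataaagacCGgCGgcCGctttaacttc
Epha5: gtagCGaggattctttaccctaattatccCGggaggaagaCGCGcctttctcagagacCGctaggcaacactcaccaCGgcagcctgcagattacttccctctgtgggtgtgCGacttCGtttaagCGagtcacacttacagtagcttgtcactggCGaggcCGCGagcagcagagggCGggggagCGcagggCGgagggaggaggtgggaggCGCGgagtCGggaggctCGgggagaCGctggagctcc
Robo4: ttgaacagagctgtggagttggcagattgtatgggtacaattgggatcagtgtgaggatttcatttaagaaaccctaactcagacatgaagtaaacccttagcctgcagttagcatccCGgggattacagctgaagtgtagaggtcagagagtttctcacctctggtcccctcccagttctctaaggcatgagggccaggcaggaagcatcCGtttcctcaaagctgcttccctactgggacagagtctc
Sema3g: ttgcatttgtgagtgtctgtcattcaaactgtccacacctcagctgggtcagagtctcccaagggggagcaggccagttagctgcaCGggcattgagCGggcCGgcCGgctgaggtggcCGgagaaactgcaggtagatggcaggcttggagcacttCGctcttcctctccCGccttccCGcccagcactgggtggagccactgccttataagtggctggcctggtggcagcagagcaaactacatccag

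**Figure D2:**
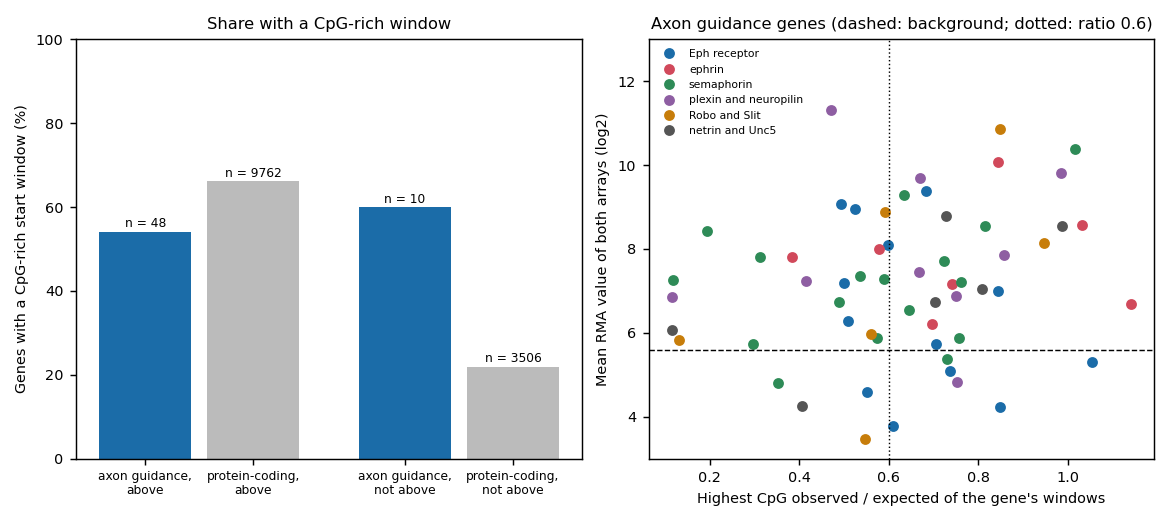
Left, the share (%) of genes with a CpG-rich start window for the axon guidance genes (blue) and protein-coding genes (grey), by background call, with the number of genes above each bar; the blue bars stand at 54.2% and 60%, the grey bars at 66.2% and 21.9%. Right, the mean RMA value (log2) of each axon guidance gene against the highest CpG ratio of its windows, with the background threshold (dashed) and the ratio of 0.6 (dotted).

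Of the 13 Eph receptors 8 were above background. Among class A receptors, which mainly bind class A ephrins, Epha2, a receptor widely found on epithelial and stem cells, was at 9.08 and 9.08. Epha3 was at 9.33 and 9.44, and Epha4, which binds ephrins of both classes, was at 8.97 and 8.92. On the probe sets read, these receptors lay more than 3 log2 units above the threshold on each array. Epha2 has a shared probe set alone, marked _a_at, a suffix for several transcripts of the same gene. Epha3 was above background on 3 of its 4 probe sets and Epha4 on 4 of its 5. Epha7 was at 6.97 and 7.00, and Epha1 at 6.23 and 6.34. Epha10, a family member without kinase activity, was at 5.87 and 5.60, just over the threshold on the second array; it was not above the 99th percentile of the olfactory receptor genes. Among class B receptors Ephb3 was at 8.06 and 8.12. Ephb4, the receptor of venous endothelium, was at 7.22 and 7.16, also on a shared _a_at probe set alone.

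The 5 Eph receptors not above background were Epha5, Epha6 and Epha8 of class A and Ephb1 and Ephb6 of class B. Epha5, known mainly from neurons, was at 4.33 and 4.14, and its other 3 probe sets were lower still, so all 4 lay under the threshold. Epha6 was at 3.90 and 3.64, and Ephb1 at 4.60 and 4.59. Epha8 (5.40 and 5.19) and Ephb6 (5.23 and 4.96), which like Epha10 lacks kinase activity, had means less than 0.5 log2 units under the threshold. All but Epha5 rest on 1 probe set.

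All 8 ephrins were above background. The class A ephrins are held in the membrane by a lipid anchor: Efna5 was at 8.54 and 8.62, Efna4 at 7.77 and 7.84, Efna2 at 7.01 and 7.32, Efna3 at 6.75 and 6.63, and Efna1 at 6.33 and 6.08. The class B ephrins cross the membrane: Efnb2, the arterial partner of Ephb4, was at 10.08 and 10.05, Efnb1 at 8.08 and 7.93, and Efnb3 at 5.99 and 5.86. Only Efna1 and Efnb3 lost the call when 37 vomeronasal and taste receptor genes, with a threshold of 6.08, replaced the olfactory receptors; no other ephrin did under any alternative that measured it. Efna4 has a shared probe set alone, marked _a_at.

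Of the 20 semaphorins 18 were above background. In the secreted class 3, Sema3c was at 10.44 and 10.33, Sema3f at 9.27 and 9.16 and Sema3a, the classic growth-cone collapsing factor, at 8.48 and 8.39. Sema3e, which binds Plxnd1 without a neuropilin, was at 6.72 and 6.76, and Sema3b, on shared _a_at probe sets alone, at 6.59 and 6.67. Sema3d, at 5.89 and 5.60, was just over the threshold on replicate 2 and lost the call under 3 of the alternatives. Sema3g was not above background (4.73 and 4.85). In all, 6 of the 7 class 3 genes were above background.

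Among the membrane-bound semaphorins, class 4 had 5 of 6 genes above background. Sema4b was at 8.53 and 8.56, Sema4f at 7.80 and 7.81, and Sema4d, a ligand of Plxnb1, at 7.28 and 7.25. Sema4c, a ligand of Plxnb2, was at 7.16 and 7.26. Sema4a, at 5.84 and 5.91, passed by less than 0.5 log2 units, and Sema4g, at 5.34 and 5.43, fell short by less than that; it passed with unshared probe sets alone and with the median over probe sets, where the threshold was 5.30. Sema3f, Sema4a and Sema4f were read on probe sets marked _x_at, whose probes may bind other transcripts; the unshared probe set of Sema3f, 1420508_at, was at 6.44 and 6.49 and also above background.

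In class 5, Sema5a was at 7.24 and 7.30 and Sema5b at 6.47 and 6.63. In class 6, Sema6c was at 7.77 and 7.67, Sema6d, a ligand of Plxna1, at 7.33 and 7.39, Sema6a at 6.48 and 6.51 and Sema6b at 5.96 and 5.81. Sema6c was read on a shared _a_at probe set, and its unshared one was not above background (4.63 and 4.46). The calls of Sema5a, Sema6a and Sema6d rest on 1 probe set each, and all 3 genes fell below background when the median over their probe sets was taken. Sema7a, a lipid-anchored semaphorin, was at 9.25 and 9.34 on 1 of its 2 probe sets. The other, 1422040_at, was not above background (5.26 and 5.40).

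Among semaphorin receptors, 8 of 9 plexins and both neuropilins were above background. Nrp1, the co-receptor for Sema3a and also for vascular endothelial growth factor, was at 11.31 and 11.33. Nrp2, the co-receptor for Sema3f, was at 9.75 and 9.90. All 4 probe sets of Nrp1 and all 4 of Nrp2 were above background. Of the A plexins, which signal with neuropilins, Plxna1 was at 9.14 and 9.17, Plxna3 at 7.27 and 7.21, Plxna2 at 6.89 and 6.86 and Plxna4 at 6.33 and 6.09. Of the B plexins, Plxnb2 was at 9.67 and 9.71, Plxnb1 at 7.80 and 7.92 and Plxnb3, on a shared probe set, at 6.86 and 6.83. Plxnd1, the receptor for Sema3e, was at 7.46 and 7.43. The exception was Plxnc1, the plexin that binds Sema7a, at 4.88 and 4.78, with none of its 6 probe sets above background. Itgb1, the integrin subunit through which Sema7a also acts, was at 12.10 and 12.06, with 3 of its 6 probe sets above background.

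All 3 Slits and 3 of 4 Robo receptors were above background. Slit2 was at 10.88 and 10.87 and Slit3 at 8.09 and 8.18, whereas Slit1, at 5.66 and 5.72, was 0.10 log2 units above the threshold and fell below it with the median of its probe sets. Robo1 was at 8.87 and 8.88. Robo3, which regulates midline crossing, was at 5.91 and 6.02, and Robo4, known from endothelium, at 5.77 and 5.89. Robo2 was not above background, at 3.47 and 3.46 on its only probe set. With the vomeronasal and taste receptor threshold 3 of these 7 genes were above background, namely Slit2, Slit3 and Robo1, against 61.5% of all genes.

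Of 4 netrins 3 were above background, and of 4 Unc5 receptors 3. Ntn1, the founding attractant, was at 9.81 and 9.91, Ntn4, a netrin of basement membranes, at 6.99 and 7.12, and Ntn5 at 6.08 and 6.06. Ntn3 was not (4.21 and 4.31). Unc5c was at 8.76 and 8.80, Unc5b, a receptor also of blood vessels, at 8.46 and 8.66, and Unc5a at 6.74 and 6.75. Unc5d was at 3.51 and 3.44 and not above background. The attractive netrin receptors, which are not members of the listed families, were also above background: Neo1 at 8.67 and 8.71 on 4 of its 5 probe sets, and Dcc at 6.65 and 6.44 on 1 of its 3.

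Genes with several probe sets often gave mixed calls. Of 44 such members, 29 (65.9%) had probe sets on both sides of the background, against 43.2% of all genes with several. Every probe set was above background in 13 (29.5%, against 40.8%) and none in 2 (4.55%, against 16%). For Ntn1, probe set 1454974_at read 9.81 and 9.91, and 1422987_at read 4.37 and 4.33. For Plxna1, 1428623_at read 9.14 and 9.17, and 1421232_at 5.02 and 5.11. For Epha4, probe set 1429021_at read 8.97 and 8.92, and 1456863_at 3.70 and 3.88. Each such gap recurred on both arrays, so it was larger than the spread between replicates. Over the 44 genes, taking the median of the probe sets lowered the level by 0.010 to 3.16 log2 units, with a median of 1.11. Where each probe set lies in its transcript was not analysed here.

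**Figure D3:**
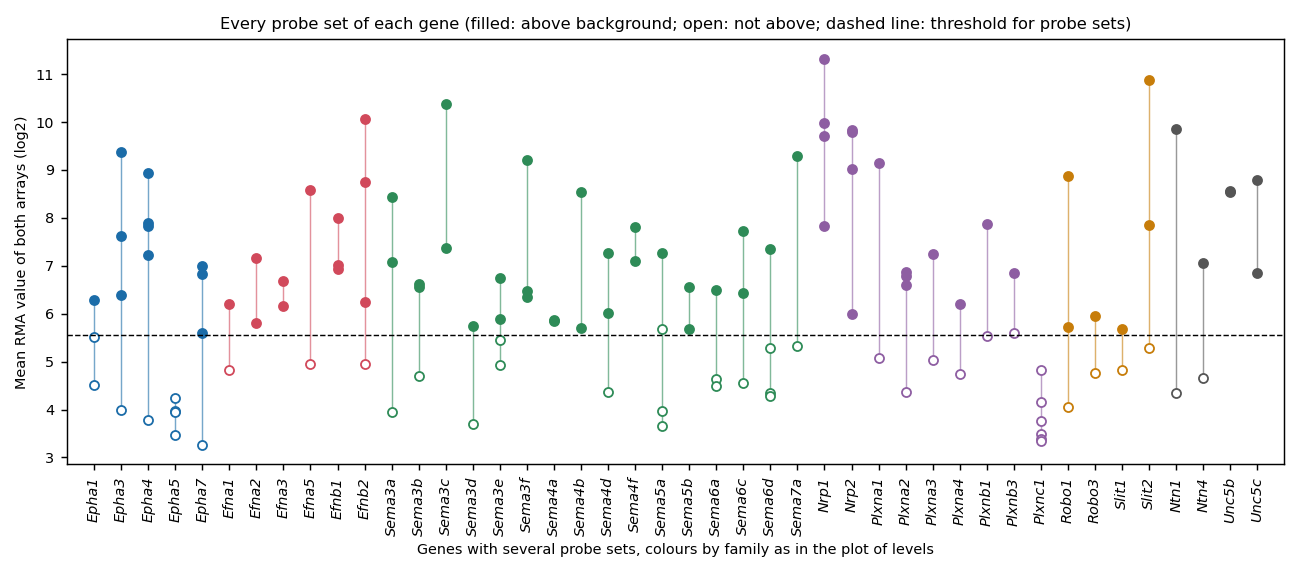
Mean RMA value (log2) of both arrays for every probe set of the 44 genes that have several, filled where the probe set was above background and open where it was not, with the probe set threshold of 5.55 as a dashed line. In 29 genes filled and open points share a column, and in Epha5 and Plxnc1 all points are open.

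The replicates gave nearly the same values for these genes. For the 56 members that passed on at least 1 array, replicate 2 minus replicate 1 had an SD of 0.116 log2 units, against 0.114 over all 12764 such genes. None of the 56 differed by 1.5-fold or more, against 0.0783% of all such genes (10 of 12764). Of the 56, 34 (60.7%) were higher in replicate 2, against 56.8% of all such genes. The largest difference belonged to Efna2, 0.31 log2 units higher in replicate 2, where genes with means within 0.5 log2 units of it had an SD of 0.131. Next came Sema3d (-0.28), Ephb6 (-0.28), Epha10 (-0.27) and Epha6 (-0.25), all dim genes, beside SDs of 0.174 to 0.187 among genes of similar level. With 2 arrays of 1 group no test was possible.

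**Figure D4:**
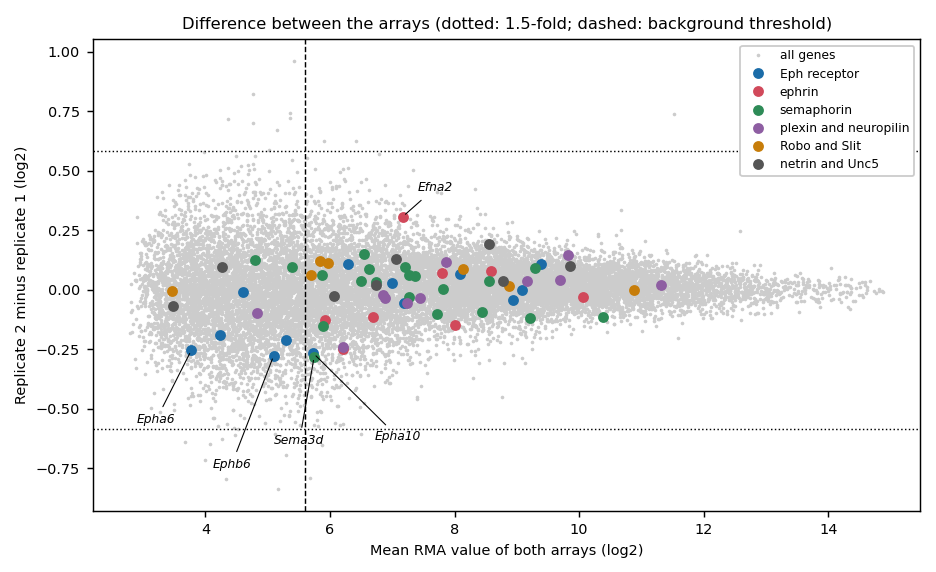
Replicate 2 minus replicate 1 (log2) against the mean RMA value (log2) for all genes (grey) and the axon guidance genes (coloured by family), with 1.5-fold (dotted) and the background threshold (dashed). Every coloured point lies between -0.28 and 0.31, inside the dotted lines.

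Genes that work with these ligands and receptors were above background at 61 of 67 measured (91%), against 68.4% of all genes. Most of these partners have several probe sets, and of all genes with several 83.6% were above background. In the receptor list, which holds co-receptors and further ligands, 21 of 26 (80.8%) were. Besides Dcc and Neo1, the first in list order were Dscam, another netrin receptor (7.00 and 6.90), and its relative Dscaml1 (6.02 and 6.07). Dscam and Dscaml1 were each above background on 1 of 5 probe sets. Ntng1 (4.65 and 5.04) and Ntng2 (5.40 and 5.33), lipid-anchored relatives of the netrins, were not above background. In the intracellular list 40 of 41 (97.6%) were. It includes the collapsin response mediators Crmp1 (7.55 and 7.50), Dpysl2 (11.35 and 11.34), Dpysl3 (11.46 and 11.43) and Dpysl4 (6.26 and 6.24), which act downstream of semaphorins, and only Dpysl5 was not above background (5.24 and 5.13). Dpysl4 was above background on 1 of its 3 probe sets. When medians over probe sets were used, 50 of the 67 partners (74.6%) were above background, against 66.5% of all genes. These were 13 of the 26 genes in the receptor list (50%) and 37 of the 41 in the intracellular list (90.2%). The receptor list was then below the share of all genes. Limk1, a kinase that relays semaphorin signals to cofilin and lies in the WBS segment, was at 7.24 and 7.51.

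All 67 genes matched the RefSeq gene table by identifier. None lies between Gtf2i and Fkbp6, the ends of the WBS segment on mouse chromosome 5. The same chromosome carries 7 members: Sema3a, Sema3c, Sema3d, Sema3e, Slit2 and Ephb4, which were above background, and Epha5, which was not.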

How the data were processed

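The deposited log2 values, 1 for each of 45101 probe sets and array, were made by the authors with RMA, per the submitters' processing notes; neither its version nor the set of arrays it was run on is given in the sources used here. RMA equalises the arrays' distributions, gives no detection call and keeps no read depth; the number of arrays limits the precision.

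Probe sets were named by the platform annotation: 34958 had 1 symbol, 932 had several and were left out, and 9211 had none here. Thresholds, counts, medians and replicate differences were computed with Python 3.11.15, pandas 2.3.3 and numpy 2.4.6, and the loess (fraction 0.3) with statsmodels 0.14.6. No test was run, since both arrays belong to 1 group. Alternatives were the 99th percentile, vomeronasal and taste receptor genes as reference, the median of all probe sets, unshared probe sets (without _a_at, _s_at and _x_at), each array alone, loess, centring, no filter on dim genes and a 2-fold limit. Every member was named; from each partner list, 4 genes that passed and 2 that did not were taken in list order, plus Dcc, Neo1 and Limk1. Itgb1 and the cell type markers quoted by value were chosen after their values were seen, as were the windows printed. The members and lists were chosen with earlier results of these data known. Columns not used numbered 0.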

Additional observations from a re-analysis of the deposited data

How the results depend on the processing

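The background calls of 41 of the 56 members held under every alternative that measured them, and 15 lost the call under at least 1. With the vomeronasal and taste receptor threshold 45 of 67 were above background, against 61.5% of all genes. Efna1, Efnb3, Epha10, Ntn5, Plxna4, Robo3, Robo4, Sema3d, Sema4a, Sema6b and Slit1 then lost the call. Taking the median over probe sets, Sema3d, Sema5a, Sema6a, Sema6d and Slit1 lost it, and with unshared probe sets Sema6a and Sema6c did, where Efna4, Epha2, Ephb4 and Sema3b had no probe set left. The 99th percentile took it from Epha10 and Sema3d. Sema4g gained it with the median and with unshared probe sets, and the other 10 members not above background stayed so. The count of members was 45 to 56 over the alternatives, and the share of all genes above background was 61.5% to 69.3%. The vomeronasal and taste receptor threshold, the highest of those tried, left 3 of the Robo and Slit genes in place of 6; taking the median over probe sets left 13 of the 26 genes of the receptor partner list in place of 21. These counts moved by more than 1.5 times.

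The median level of 7.17 was 6.23 from medians over probe sets, a rule that takes dimmer probe sets by construction, and 6.88 with unshared probe sets; with 1 array it was 7.01 to 7.16. The median over probe sets moved the level of 42 of the 44 members with several by more than the SD between replicates, and unshared probe sets that of 6 of 63. The SD of the replicate difference was 0.113 to 0.140, and 0 members passed 1.5-fold with loess, centring, no filter on dim genes, the median over probe sets or unshared probe sets, the alternatives run for that count. No paired analysis was possible because the study has a single group. Near the threshold, signal over background is the limit: 9 members passed it by less than 0.5 log2 units and 3 fell short by less than that.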

Other observations

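Several members are neighbours in the reference gene table, and neighbours did not always share a call; these pairs were listed after the calls were known. Efna1, Efna3 and Efna4 follow one another with 0 protein-coding genes between them, and all 3 were above background. Robo3 and Robo4 are adjacent and were both above background, as were Sema3a and Sema3d, also adjacent. The pairs Sema3a and Sema3e, and Sema3b and Sema3f, have 3 protein-coding genes between them and were above background too. Robo1 and Robo2 are adjacent too, but Robo1 was above background (8.87 and 8.88) and Robo2 was not (3.47 and 3.46). Epha3 and Epha6, with 4 protein-coding genes between them, likewise differed in their call, Epha3 at 9.33 and 9.44 being above background and Epha6 at 3.90 and 3.64 not. Robo2 and Epha6 rest on 1 probe set each, and of all members 83.6% were above background.

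Among partner genes outside the naming rule, chosen after their values were seen, the ligands of Unc5 receptors Flrt2 (11.57 and 11.54) and Flrt3 (7.91 and 7.80) were above background on all of their 3 and 2 probe sets. Adam10, a protease that cleaves ephrins, was above background on all 4 (10.74 and 10.70). The netrin antagonist gene Draxin was not above background (5.27 and 5.24).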
